A study of Gallus gallus with 7 samples.

Results

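The regions described here are the chromatin regions on chicken microchromosomes (chromosomes 11 to 33) that lie more than 1 kb from every transcription start site (TSS) of the gene table. A region's distance was taken from its nearest edge to the start of the nearest annotated gene, and regions within 1 kb are called promoters. Of 25469 regions in the table, 4439 lie on chromosomes 11 to 33, and 2106 of those (47.4%) met the rule. They are set beside the 3994 regions chosen in the same way on chromosomes 1 to 10 (48.0% of 8323). The microchromosome regions lie on 21 chromosomes, since the table lists no region on chromosomes 29 and 31.

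The study followed vagal neural crest of wild-type chicken embryos, sorted by a citrine reporter. The chromatin libraries come from Hamburger and Hamilton stage 18 (HH18) cells that carried the E2:citrine reporter, electroporated at HH8. Sox10 was pulled down by biotin in 2 libraries and tfap2B in 2, and 2 libraries are inputs. Each factor was delivered by electroporation as a fusion to an Avi tag together with the biotin ligase BirA, so the protein that carries the tag is introduced and is not the embryo's own copy. None of the libraries analysed here is a pull-down from cells that lack a tagged factor, and whether the input cells carried one is not in the labels. The single RNA library comes from HH10 cells that carried the NC2:citrine reporter, electroporated at HH4. Its column in the gene table was matched to it by stage and reporter, since the column does not carry the library's title, and every RNA level below rests on this match. Whether libraries of 1 group stem from different embryos or from 1 pool is not in the labels, and a p-value therefore refers to the spread of these libraries alone, which may be technical.

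Bird genomes are divided into a few large chromosomes and many microchromosomes. The latter are small, rich in genes and in G and C bases, and have short introns and short distances between genes. Sox10 is an HMG-box factor and tfap2B a member of the AP-2 family. Both are known regulators of the neural crest, the migratory population that forms, among other tissues, the enteric nervous system. Distal regulatory elements, which act away from promoters, are known to carry much of the cell-type-specific binding of such factors. An input is sonicated chromatin without pull-down. It reports how many reads a region yields before any enrichment.

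The microchromosome regions lay close to genes and to each other. The nearest TSS was a median of 6.37 kb away (quartiles 2.89 and 16.7 kb, longest 475 kb), against 17.2 kb on chromosomes 1 to 10. Exons of annotated genes overlapped 23.2% of them (489), 25.02% (527) were intronic and 51.8% (1090) intergenic. On the large chromosomes 9.49% were exonic, 22.7% intronic and 67.9% intergenic. A further region of the same kind lay within 20 kb of 58.5% of the microchromosome regions (1233 of 2106), compared with 31.5% on the large chromosomes (1258 of 3994). The median gap to the nearest such region was 13.0 kb on microchromosomes and 47.1 kb on the large chromosomes. All but 1 of the 2106 regions span 500 bp.

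Around the 1 kb limit the levels changed little. The 248 microchromosome regions 500 to 1000 bp from a TSS had medians of 121 and 113 scaled reads with sox10, 139.6 and 122 with tfap2B, and 150.1 and 281 with input. The 186 regions 1000 to 1500 bp away had medians of 113 and 108, 125 and 110.4, and 164 and 265, in the same order.

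Values are given as scaled reads, which are whole reads multiplied by 1 constant per library, as deposited. Reads in regions ranged from 1366132 to 3498728 over the pull-down libraries, and were 7989029 and 13921317 for the inputs. All 2106 regions passed the filter on low reads. The libraries of the sox10 group were closest to each other: the SD of log2 values within a group had a median over the 2106 regions of 0.24 with sox10, 0.37 with tfap2B and 0.69 with input (n = 2 libraries each). The inputs thus spread most, and every contrast with them rests on this pair. Marker genes of neural crest were not checked in the RNA library, because 0 of the 24881 gene identifiers could be paired with a symbol.

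The pull-downs gave much the same signal on microchromosomes as on large chromosomes, while the inputs gave more on microchromosomes. The median microchromosome region had 121 and 119 scaled reads with sox10, 111 and 108 with tfap2B, and 109 and 190.2 with input. On chromosomes 1 to 10 the medians were 125 and 129 with sox10, 98.4 and 95.8 with tfap2B, and 51.4 and 70.8 with input. Both input libraries were therefore higher on microchromosomes, and the 4 pull-down libraries differed little between the chromosome classes.

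**Figure D1:**
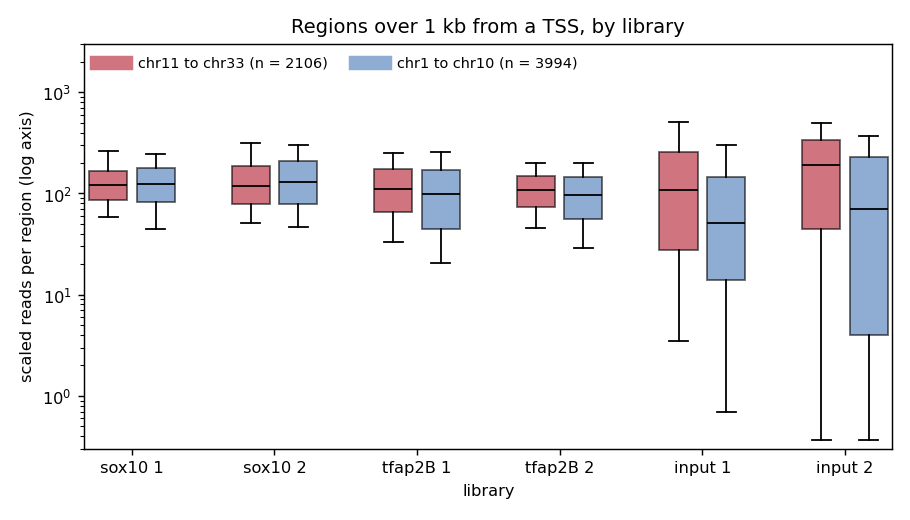
Scaled reads per region (log axis) in each library for regions over 1 kb from a TSS on chromosomes 11 to 33 and on chromosomes 1 to 10. Lines mark medians, boxes the quartiles and whiskers the 10th and 90th percentiles. The input boxes of the microchromosomes are shifted upward, with medians of 109 against 51.4 and 190.2 against 70.8, while the pull-down boxes nearly coincide.

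Expressed as the median log2(scaled reads + 1) of microchromosome regions minus that of large-chromosome regions, the inputs differed by 1.07 and 1.41. Sox10 gave -0.04 and -0.11 by the same measure, and tfap2B 0.17 and 0.18. The mean was 0.05 over the 4 pull-downs and 1.24 over the inputs, a difference of -1.19, and the 2 sets of libraries did not overlap. An exact two-sided permutation test over libraries gave p = 0.133, the smallest value that its 15 splits allow, so this design cannot reach 0.05. Between sox10 and tfap2B the difference was -0.25 (exact two-sided permutation p = 0.333, the smallest that 6 splits allow).

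The input difference was present at every distance from genes and in every annotation class examined. For regions 1 to 5 kb from a TSS (873 on microchromosomes, 889 on large chromosomes) it was 0.58 and 0.34. At 5 to 20 kb (799 and 1267 regions) it was 0.69 and 0.63, and beyond 20 kb (434 and 1838 regions) 0.51 and 2.90. In exons it was 0.34 and 0.32, in introns 0.91 and 3.44 and between genes 0.90 and 1.20. In each of these subsets both inputs lay above the 4 pull-downs, whose differences ranged from -0.31 to 0.38. On the large chromosomes the median of input 2 was 6.89 scaled reads in introns and 11.2 beyond 20 kb, against 84.6 and 90.7 on microchromosomes.

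**Figure D2:**
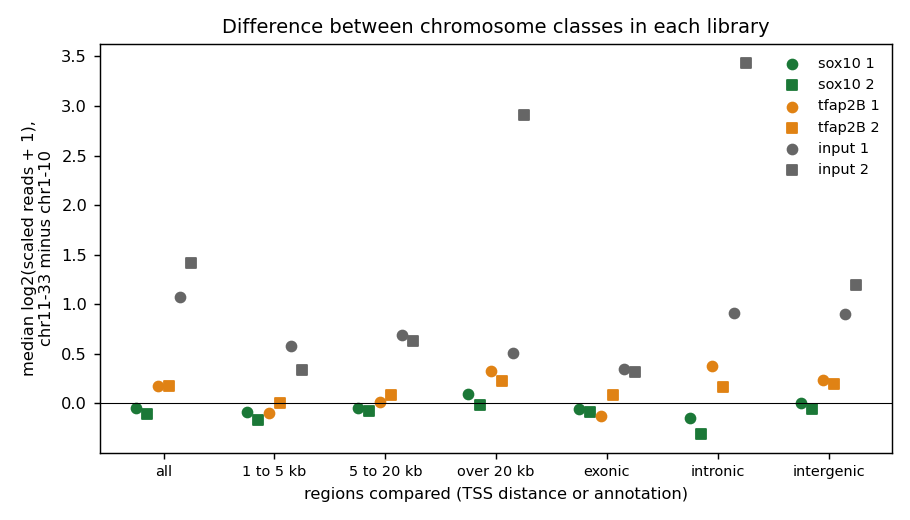
Median log2(scaled reads + 1) of regions on chromosomes 11 to 33 minus that on chromosomes 1 to 10, for all regions over 1 kb from a TSS and within classes of TSS distance and annotation. Each point is 1 library. The grey input points lie above the pull-down points in every class, at 1.07 and 1.41 over all regions.

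Within the microchromosome regions, sox10 signal was highest where input was lowest, and tfap2B signal was not. The regions were divided into quartiles of their mean log2 input level, a division that fixes the input values. A region with almost no input reads passes the filter on low reads only through the pull-downs, so the pull-down levels in the lowest quartile are not free of it either. In the quartile with the lowest input (527 regions, input medians 6.25 and 2.18) the sox10 medians were 209 and 253 scaled reads and the tfap2B medians 69.8 and 85.4. In the next quartile they were 105 and 103 for sox10 and 120.4 and 106 for tfap2B. The quartile with the highest input (438 and 444) had 119 and 115 for sox10 and 124 and 127 for tfap2B. Both sox10 libraries thus had their highest median, and both tfap2B libraries their lowest, in the same quartile. In the lowest input quartile of chromosomes 1 to 10 (999 regions) the medians were 195 and 243 for sox10 and 51.9 and 72.9 for tfap2B. Both sox10 libraries again had their highest median there. The tfap2B medians in the next quartile were 54.6 and 58.3, so tfap2B replicate 2 had its lowest median in that one. Across the 2106 regions Pearson's r of the log2 values between a sox10 and an input library was -0.39 to -0.31, and between a tfap2B and an input library 0.16 to 0.40. These are descriptions, since regions of 1 library are not independent.

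The annotation of the regions changed along the same order. Exonic regions made up 8.54% of the quartile with the lowest input and 40.2% of that with the highest. Introns went the other way, from 41.2% to 12.5%. The median TSS distance fell from 12.0 to 4.51 kb.

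**Figure D3:**
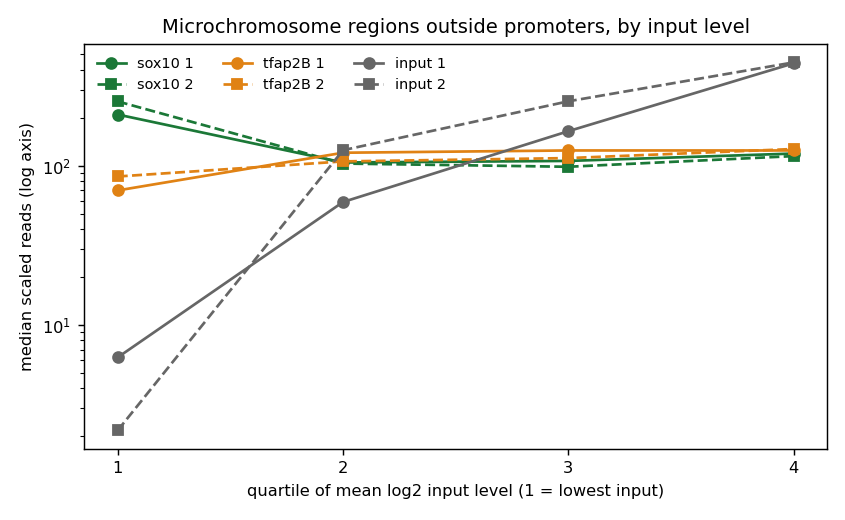
Median scaled reads (log axis) of the microchromosome regions outside promoters in each library, by quartile of their mean log2 input level. The sox10 lines start at 209 and 253 in the quartile with the lowest input and lie between 98.3 and 119 from the next one on, whereas the tfap2B lines start at 69.8 and 85.4 and end at 124 and 127.

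Sox10 was set against input to find regions that its pull-down enriched. With limma on log2(scaled reads + 1) and Benjamini-Hochberg adjustment over all 25281 tested regions, 459 microchromosome regions (21.8%) were higher in sox10 at adjusted p under 0.05 and 477 (22.6%) were lower. Over all tested regions 18.4% were higher and 22.3% lower, so both shares lay near the background. That background is mixed. It includes promoters, and only 13885 of the 25281 tested regions lie on placed chromosomes, the others on unplaced or linkage sequences. Among the large-chromosome regions outside promoters 30.5% (1217) were higher and 9.59% (383) lower. Microchromosome promoters were higher in 1.80% and lower in 22.8% of cases. The 459 higher regions had medians of 237 and 288 scaled reads with sox10, 74.3 and 91.6 with tfap2B, and 7.64 and 1.45 with input. That sox10 was high and input low in this set follows from how it was chosen. In 92 of its regions (20.04%) both inputs had at most 3 reads, and these are all 92 microchromosome regions with so few. The 477 lower regions had medians of 106 and 95.9 with sox10 and 456 and 425 with input, against 121 and 119, and 109 and 190.2, in the median microchromosome region. Both sox10 libraries lay entirely above both inputs in 628 microchromosome regions (29.8%, background 30.6%) and entirely below them in 982 (46.6%, background 44.4%).

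Regions were named by rule. These are the 6 with the largest difference in each direction among well-covered regions whose libraries did not overlap between the groups. The first above input was chr21:2682357-2682857 (galGal5), an intronic region 10.5 kb from the TSS of ENSGALG00000035017. It had 455 and 538 scaled reads with sox10, 255 and 244 with tfap2B, and 42.4 and 8.35 with input. By the rule both sox10 values exceed both inputs. The log2 difference was 4.62 ± 0.73 (SE; adjusted p = 0.00471 by limma). An intergenic region at chr13:1100949-1101449 had 529 and 707 with sox10, 211 and 135 with tfap2B, and 87.5 and 7.62 with input, a difference of 4.47 ± 0.98 (SE, limma adjusted p = 0.0128). Its tfap2B libraries also lay above both inputs but did not pass the test (2.62, limma adjusted p = 0.0794). In an intron of ENSGALG00000001437, chr24:1983734-1984234 had 418 and 416 with sox10 against 49.3 and 12.7 with input (3.99 ± 0.68). An exonic region of ENSGALG00000004504, chr14:4033952-4034452, had 356 and 459 against 41.0 and 16.7 (3.89 ± 0.59). At these 4 regions the sox10 libraries lay within 1.5-fold of each other, and the inputs differed more.

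The 6 named regions below input had 1701 to 2808 scaled reads in input 1 and 447 to 955 in input 2, against 42.1 to 136 in the sox10 libraries. An intergenic region at chr20:5638279-5638779, 1.39 kb from a TSS, had 73.3 and 42.1 with sox10 and 2677 and 580 with input (log2 difference -4.46 ± 0.73, SE, limma adjusted p = 0.00527). Exonic regions at chr15:6889533-6890033, chr23:2023682-2024182, chr16:217816-218316 and chr14:12995686-12996186 differed by -4.00, -3.94, -3.89 and -3.84. Of the 6, 4 thus overlapped exons. In each of them input 1 was more than double input 2, and tfap2B was also below both inputs.

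Which library was left out decided the counts. Omitting sox10 replicate 1 gave 195 higher and 67 lower, omitting sox10 replicate 2 gave 93 and 8, and omitting input replicate 1 gave 826 lower. The scaling set the balance between directions. As deposited, 49.0% of called microchromosome regions were higher. This share was 57.7% when scaled by TMM, 67.0% by DESeq2 size factors, 73.9% by total reads and 74.5% by the upper quartile. Over all tested regions the median log2 difference was -0.40 as deposited and lay between -0.15 and 0.35 under the other scalings. Relative to large-chromosome regions the median microchromosome difference was -1.35 as deposited and -1.34 to -1.33 under the other scalings. Each scaling multiplies a library by 1 constant, which cancels in this difference except for the added 1 read. Its near constancy is thus fixed by the arithmetic, and nothing is read from it.

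For tfap2B against input, 322 microchromosome regions (15.3%) were higher and 373 (17.7%) lower by the same test, against 10.8% and 17.4% of all tested regions. On chromosomes 1 to 10 the shares were 20.6% (824) and 6.38% (255). The 322 higher regions had medians of 91.7 and 99.96 scaled reads with tfap2B, 233 and 290.1 with sox10 and 3.47 and 1.09 with input. Their tfap2B medians were lower than those of all microchromosome regions (111 and 108), and 89 of them (27.6%) had at most 3 reads in both inputs. The 373 lower regions had 94.9 and 106 with tfap2B and 518 and 444 with input, and 44.8% of them overlapped exons.

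Single regions did carry raised tfap2B signal. An intronic region of ENSGALG00000000619, chr28:840911-841411, had 324 and 285 scaled reads with tfap2B, 329 and 435 with sox10, and 6.25 and 63.5 with input. Both factors lay above both inputs there (tfap2B minus input 3.82 ± 0.93, SE, limma adjusted p = 0.0214; sox10 minus input 4.13 ± 0.93). An intergenic region at chr15:2724482-2724982, 3.65 kb from a TSS, had 581 and 296 with tfap2B, 326 and 388 with sox10, and 36.8 and 31.2 with input (3.57 ± 0.51, SE, limma adjusted p = 0.00727). Another at chr22:3004457-3004957 had 380.3 and 421 with tfap2B, 293 and 335 with sox10, and 60.4 and 16.7 with input (3.60 ± 0.64). The region at chr21:2682357-2682857 was named here as well, with a difference of 3.64. An intergenic region at chr23:5051235-5051735 had 339 and 352 with tfap2B against 4.86 and 111 with input, 3.76 ± 1.17 (SE, limma adjusted p = 0.0459). It was not called in 4 of the 14 alternatives other than leaving out 1 library. These were edgeR on recovered reads, a replicate block, a fit of tfap2B and input alone, and placed chromosomes alone.

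The 6 named regions with tfap2B below input had 1496 to 4191 scaled reads in input 1 and 623 to 823 in input 2, against 34.01 to 235 in tfap2B. They were led by an exonic region at chr22:2873423-2873923, with 36.7 and 89.6 with tfap2B and 2129 and 623 with input (-4.30 ± 0.69, SE, limma adjusted p = 0.00752). Intergenic regions at chr14:13662852-13663352 and chr12:11526254-11526754 differed by -4.24 and -4.19, and an exonic one at chr18:4470064-4470564 by -4.15. The sox10 libraries were below both inputs at all 6 as well. Over all microchromosome regions both tfap2B libraries lay above both inputs in 603 (28.6%, background 26.1%) and below them in 860 (40.8%, background 37.4%).

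Omitting either tfap2B library left 0 higher and 0 lower by limma. At unadjusted p under 0.05, 312 regions were then higher and 431 lower (tfap2B replicate 1 omitted), or 289 and 420 (replicate 2 omitted). Omitting sox10 replicate 1 gave 171 and 182, and sox10 replicate 2 gave 173 and 187. Omitting input replicate 1 gave 490 and 661, and input replicate 2 gave 601 higher. The share of all tested regions at unadjusted p under 0.05 was not counted, so nothing is read from those counts. As deposited, 46.3% of the called regions were higher. Scaling by TMM made this 59.97%, by DESeq2 size factors 63.4%, by the upper quartile 74.7% and by total reads 78.3%. The median of all tested regions went from -0.14 to between 0.12 and 0.65.

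Both comparisons used the same inputs. Side by side, 308 microchromosome regions were above input for both factors, which is 67.1% of the sox10 list and 95.7% of the tfap2B list, and 325 were below input for both (68.1% and 87.1%). Over all tested regions 55.9% of the sox10 list and 95.8% of the tfap2B list were above input for both, and 68.9% and 88.1% of the lists below input. Because the inputs are shared, nothing is read from these overlaps. No microchromosome region outside promoters was called in opposite directions.

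Where the factors differ from each other was tested in a fit of the 4 pull-downs alone. In this fit 159 microchromosome regions (7.55%) were higher in sox10 and 1 (0.0475%) was higher in tfap2B. The background over all tested regions was 2.47% and 0.103%. The large-chromosome regions outside promoters gave 10.3% (410) and 0.1502% (6), and microchromosome promoters 0.343% (8) higher in sox10. The 159 regions had medians of 256 and 321 scaled reads with sox10 and 47.4 and 62.5 with tfap2B, a median log2 difference of 2.39. Their inputs, which took no part in the fit, had medians of 4.86 and 0.363. In the quartile with the lowest input lay 151 of the 159, a quartile of 527 of the 2106 regions. A region with almost no input reads passes the filter on low reads only through the pull-downs. This share is therefore not free of how the regions were kept, and nothing about the factors is read from it. Of the 159, 41.5% were intronic and 8.18% exonic. Above input for sox10 were 158 of them, and 94 of these were above input for tfap2B as well. The sox10 count reuses the libraries of the direct calls and adds no support to them.

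The largest difference among those named was in an intron of ENSGALG00000002544, chr13:2382437-2382937, 6.75 kb from its TSS. It had 465 and 524 scaled reads with sox10, 27.7 and 58.3 with tfap2B, and 16.0 and 0.363 with input. Sox10 stood about an order of magnitude above tfap2B, the log2 difference being 3.58 ± 0.44 (SE; adjusted p = 0.0202 by limma). An intergenic region 1.20 kb upstream of ENSGALG00000003160, chr28:3744648-3745148, had 496 and 648 with sox10, 38.5 and 72.9 with tfap2B, and 29.2 and 12.7 with input (3.39 ± 0.41). Of the named regions this one is closest to a gene start. Introns of ENSGALG00000000950 (chr17:10465687-10466187) and ENSGALG00000002742 (chr15:4423037-4423537) differed by 3.19 and 3.12. Intergenic regions at chr11:1383797-1384297 and chr24:1229274-1229774 differed by 3.06 and 2.98. The region on chromosome 24 had 429 and 576 with sox10 and 80.5 and 47.9 with tfap2B, with 1 read in each input. All 6 have the same adjusted p, and the naming rule requires that their sox10 and tfap2B libraries do not overlap. Over all microchromosome regions both sox10 libraries lay above both tfap2B libraries in 634 (30.1%, background 25.9%) and below them in 482 (22.9%, background 21.9%).

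The region with more tfap2B was chr21:2009301-2009801, in an intron of ENSGALG00000001382 and 7.29 kb from the TSS of ENSGALG00000001374. It had 361 and 289 scaled reads with tfap2B, 111 and 84.2 with sox10, and 199 and 124 with input (sox10 minus tfap2B -1.73 ± 0.36, SE, limma adjusted p = 0.042). Neither factor differed from input there by the test (tfap2B minus input 1.03, limma adjusted p = 0.14; sox10 minus input -0.70, limma adjusted p = 0.261).

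**Figure D4:**
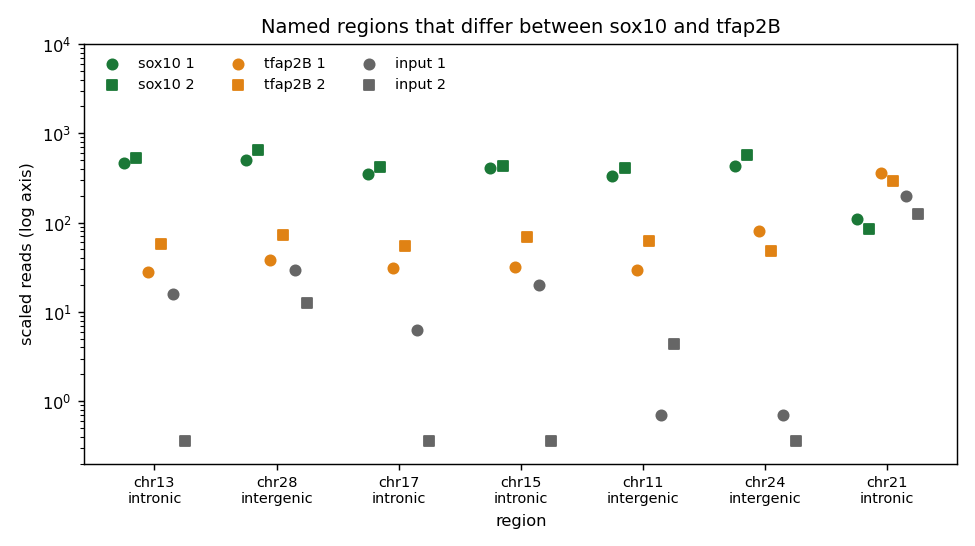
Scaled reads (log axis) in each library for the 7 named microchromosome regions that differed between sox10 and tfap2B. In the 6 at the left the sox10 points lie between 330.4 and 648 and the tfap2B points between 27.7 and 80.5. In the one at the right, on chromosome 21, tfap2B is higher.

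These direct calls depend on the sox10 pair and on how the inputs enter the fit. When the inputs joined the fit (6 libraries) with a variance shared by all groups, limma called 0 higher and 0 lower. In that fit 147 and 20 microchromosome regions had an unadjusted p under 0.05, and the smallest adjusted p by limma was 0.998. The share of all tested regions at that unadjusted threshold was not counted in any fit. Nothing is therefore read from counts at unadjusted p. With 1 variance weight per group in a fit of the same 6 libraries, limma called 82 higher and 1 lower. In the fit of the 4 pull-downs edgeR called 140 and 1 and the DESeq2 Wald test 231 and 8. Omitting sox10 replicate 1 or 2 left 0 and 0 by limma. At unadjusted p under 0.05 there were then 307 higher and 53 lower, or 245 and 25. Omitting tfap2B replicate 1 gave 363 and 35, and tfap2B replicate 2 gave 476 and 258.

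Of the annotation classes, introns had the largest share above input. Among intronic microchromosome regions 37.8% (199 of 527) were higher in sox10 than in input and 12.3% lower, against 8.38% higher and 37.2% lower among exonic ones (489). Intergenic regions lay between, at 20.1% and 21.1%. For tfap2B the order was the same, with 27.7%, 13.9% and 5.11% higher for intronic, intergenic and exonic regions. Direct calls with more sox10 made up 12.5% of intronic, 7.34% of intergenic and 2.66% of exonic regions. The input medians ran in the opposite order, at 49.3 and 84.6 for intronic, 102 and 191 for intergenic and 209 and 300.5 for exonic regions. The sox10 medians moved far less, from 132 and 136 in introns to 115 and 112 in exons. With distance from a TSS the share higher in sox10 rose from 13.4% at 1 to 5 kb to 22.5% at 5 to 20 kb and 37.3% beyond 20 kb. Chromosomes 1 to 10 had the same order, so it is not particular to microchromosomes. There 50.5% of intronic, 26.2% of intergenic and 13.5% of exonic regions were higher in sox10. By distance the shares there were 16.2%, 29.4% and 38.1%. These shares are descriptions, and the part of the input profile in them was not tested.

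Values varied among the microchromosomes. Of those with at least 20 regions, chromosome 24 had the highest share above input for sox10 (35.1%, 26 of 74) and for tfap2B (27.0%, 20 of 74), and the highest share of direct calls (16.2%, 12 of 74). It also had the lowest input medians, 49.0 and 121, and the highest sox10 medians, 157 and 151. Chromosome 28 was at the other end for sox10, with 9.30% above input (12 of 129), 2.33% direct calls (3 of 129) and the highest input medians, 188 and 312. Its sox10 medians were 119 and 124. The lowest share above input for tfap2B was on chromosome 27 (5.48%, 8 of 146). Regions below input for sox10 were most frequent on chromosome 33 (33.3%, 15 of 45) and least frequent on chromosome 24 (8.11%, 6 of 74).

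Chromosomes 9 and 10 of the large class had input medians of 92.4 and 145 and of 89.6 and 174. These lay within the range of the microchromosomes with at least 20 regions (49.0 to 188 for input 1 and 121 to 312 for input 2), while chromosome 1 had 43.8 and 21.4. The shares above input for sox10 on chromosomes 9 and 10 were 28.05% and 27.5%, against 24.8% on chromosome 11, whose input medians were 106 and 175. The input medians of chromosomes 10 and 11 were thus close to each other.

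**Figure D5:**
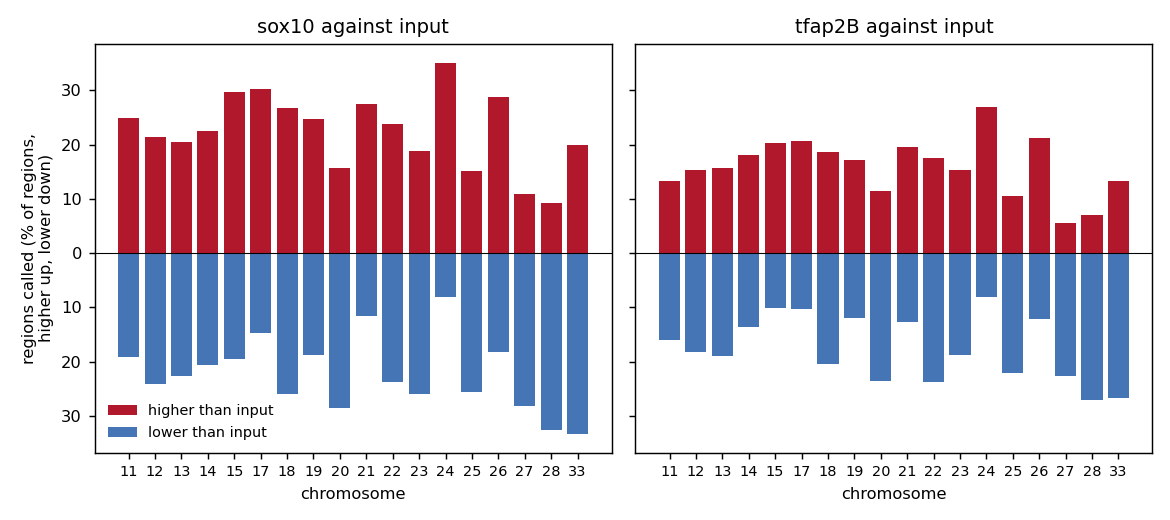
Share of microchromosome regions outside promoters called higher (upward) or lower (downward) than input for sox10 and tfap2B, by chromosome, for chromosomes with at least 20 such regions. Chromosome 24 has the tallest upward bars, 35.1% and 27.0%, and chromosomes 28 and 33 have long downward bars.

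Many regions occurred in clusters. With members joined when within 20 kb of each other, 1233 regions formed 391 clusters, 53 of them with 5 or more regions. The largest, chr13:777548-881746, held 20 regions over 104 kb, and 19 of them lie inside ENSGALG00000043142 (chr13:704847-869303, minus strand). Its regions had medians of 70.9 and 66.7 scaled reads with sox10, 69.4 and 59.4 with tfap2B, and 193 and 209 with input. None was above input, 9 were below it for sox10 and 8 for tfap2B. The gene itself had 10 counts at HH10 (0.347 CPM, exact Poisson interval 0.167 to 0.639).

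Among the genes with the most regions nearest to them, the next was ENSGALG00000032140 on the same chromosome, with 10 regions, of which 0 were above input. ENSGALG00000040471 on chromosome 28 also had 10. The medians of its regions were high in every library, at 415 and 364 with sox10, 283 and 325 with tfap2B, and 421 and 1535 with input. None of those was above input. ENSGALG00000024335 on chromosome 18 had 8 regions, 1 of them above input and 4 below for each factor. At the 8 regions nearest to ENSGALG00000031532 on chromosome 20 the sox10 values ran from 11.7 to 117 and the tfap2B values from 12.5 to 97.9. Their inputs ran from 277 to 1990 and from 141 to 523, and all 8 were below input for both factors. ENSGALG00000045538 on chromosome 27 was tied with these genes at 8 regions, of which 0 were above or below input for either factor.

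A group with the opposite pattern was noticed after its values were seen. Of the 7 regions nearest to ENSGALG00000029237 on chromosome 11, 6 were above input for sox10 and 1 for tfap2B. Their medians were 341 and 311 with sox10, 109 and 264.5 with tfap2B, and 75.0 and 15.6 with input. That gene had 0 counts at HH10, which allows up to 0.104 CPM when 3 counts are taken as the limit and 0.128 CPM by the exact Poisson interval.

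The strongest pull-down signal among the microchromosome regions was at chr22:6383-6883, intergenic and 5.41 kb from a TSS. It had 1274 and 1577 scaled reads with sox10, 1086 and 1256 with tfap2B, and 197 and 53.7 with input. All 4 pull-downs lay above both inputs, differing from them by 3.77 ± 0.60 (sox10) and 3.49 ± 0.60 (tfap2B) on the log2 scale (SE, limma adjusted p = 0.00469 and 0.00854), although edgeR did not call it for tfap2B. An exonic region of ENSGALG00000033320 at chr19:58003-58503 followed for both factors, with 1238 and 1310.3 with sox10, 899 and 1195 with tfap2B, and 732 and 3079 with input. There input 1 lay below all 4 pull-downs and input 2 above all of them, and neither difference passed the test. The third for sox10, chr20:5668281-5668781, had 834 and 819 with sox10 but also the highest input of the set, 10343 and 4421. For tfap2B the third was chr12:3240160-3240660, with 552 and 712 against 2096 and 2025 with input. At 3 of these 4 regions both inputs were thus high as well.

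Regions were also taken, after the values were seen, in which all 4 pull-downs reached at least 2 times their median over placed chromosomes. There were 33, of which 25 were intergenic. In 9 of the 33 both inputs were below their own placed median, with medians of 32.7 in each input against 329 and 423 with sox10 and 413 and 319 with tfap2B. The way they were chosen all but fixes that the pull-downs exceed input there, so their calls against input add nothing. Of the 9, 6 were intergenic and 3 intronic. The highest of these was at chr26:5311611-5312111, 102 kb from the nearest TSS, with 696 and 557 with sox10, 644 and 571 with tfap2B, and 32.7 and 56.2 with input. A pair lay 12.2 and 14.6 kb from the TSS of ENSGALG00000032270 on chromosome 22, a gene with 100.3 CPM at HH10.

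In the HH10 RNA library, which is earlier than the chromatin libraries, genes nearest to microchromosome regions outside promoters were expressed at much the same level as those nearest to such regions on large chromosomes. Levels are CPM (counts scaled to the library total) of 1 library, with no replicate and no correction for gene length. In bulk RNA, fewer cells that express a gene and less RNA per cell cannot be told apart. The 1489 genes nearest to a microchromosome region had a median of 5.32 CPM, with 43.5% at 10 CPM or more and 22.0% without a count. For the 2873 genes on the large chromosomes these were 6.22 CPM, 44.9% and 29.03%. Genes nearest to microchromosome promoters had a median of 33.6 CPM. All genes on chromosomes 11 to 33 had a median of 6.92 CPM, with 46.4% at 10 CPM or more. All genes on chromosomes 1 to 10 had 6.15 CPM and 45.4%.

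Genes near regions above input had higher medians than genes near regions below input. The medians were 8.81 CPM (396 genes) and 3.61 CPM (391 genes) for sox10, and 9.56 CPM (293) and 2.33 CPM (310) for tfap2B. The low end went the other way: 23.0% of the genes near regions above input for sox10 had no count, against 20.2% near regions below it, and 23.5% against 21.0% for tfap2B. The lists also differed in annotation: 43.4% of regions above input for sox10 were intronic, against 13.6% below it (45.3% and 12.9% for tfap2B). Genes overlapped by intronic microchromosome regions had a median of 15.9 CPM, and those overlapped by exonic ones 7.87 CPM. The part of annotation in these levels was not tested. For the 142 genes nearest to direct calls with more sox10 the median was 10.4 CPM, and 50% of them had 10 CPM or more. Among the named regions, the intron on chromosome 28 lies in a gene with 34.6 CPM (exact Poisson interval 32.5 to 36.8). The gene nearest to the tfap2B-led intron of chromosome 21, ENSGALG00000001374, had 118 CPM (115 to 123). The intergenic region of chromosome 13 at 1100949 is nearest to a gene without a count. With 1 RNA library, and 2 lists that share genes, no test was made of these levels.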

How the data were processed

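Chromatin of HH18 vagal neural crest (2 sox10 and 2 tfap2B pull-downs, 2 inputs) and RNA of HH10 crest (1 library) were analysed. Per the submitters' processing notes, DiffBind, DESeq2, Bowtie, featureCounts, Subread 1.4.5 and STAR 2.4.2a were used, with galGal5 as build; their roles and the calling of the regions are not given in the sources used here. A signal, not raw counts, fills the chromatin table deposited by the authors: with a tolerance of 0.01 read, 100% of its values were whole reads multiplied by 1 constant per library. No value lies under 1 read, so 1 read can stand for none. Coordinates follow the table, whose first base may be counted from 0 or 1. Raw counts for Ensembl genes were deposited by the authors in a second table, whose HH10 column is repeated (2 identical columns, used as 1). Its 21 columns of other samples stayed unused. Whether counting used strand is unknown here, so opposite-strand genes that overlap cannot be told apart. No genome of this build was used, so no sequence is printed.

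Regions were annotated from the gene table (exonic by any overlap with an exon, else intronic inside a gene, else intergenic). The main test, limma 3.58.1 with a trend in the prior variance, was run on log2(scaled reads + 1), a scale that understates changes of low regions. It was fitted on the 25281 regions that passed filterByExpr of edgeR 4.0.16, with Benjamini-Hochberg adjusted p under 0.05. Contrasts with input used all 6 libraries, and sox10 against tfap2B the 4 pull-downs. Levels between chromosome classes were compared over libraries with an exact permutation test (scipy 1.17.1). Alternatives were other scalings, edgeR and DESeq2 1.42.0 on recovered reads, other filters, pseudocounts, samples, variance weights and member rules, a replicate block, and each library left out. The tests ran on simulated data first. Regions were named by rule: per comparison and direction the 6 largest called differences with a mean at or above the median placed region, no overlap between libraries, a TSS within 100 kb and 1 region per nearest gene; also the 3 highest levels per factor, the largest cluster and the 5 genes with the most regions. Members, lists, tests and rules were chosen with earlier results of these data known. Intervals cover counting error only.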

Additional observations from a re-analysis of the deposited data

Results flagged for a closer look

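At 2 of the 2106 microchromosome regions both sox10 libraries lay on one side of both inputs and both tfap2B libraries on the other. The share over all tested regions was not counted, so nothing is read from this number. The intronic region at chr21:2009301-2009801 had a log2 difference of -1.73 between sox10 and tfap2B, which passed the test (limma adjusted p = 0.042). The exonic region at chr18:10279033-10279533, nearest to ENSGALG00000007522, had 143 and 154 scaled reads with sox10, 169 and 206 with tfap2B and 164 and 168 with input, a log2 difference of -0.33 that did not pass it (limma adjusted p = 0.692). In the fit with inputs no difference between a factor and input passed the test at either region.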

How the results depend on the processing

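The counts given for sox10 against input were 459 higher and 477 lower. The 477 became 187 with total reads, 248 with DESeq2 size factors, 185 with upper quartile factors, 239 with edgeR, 281 with the DESeq2 Wald test, 292 with 1 variance weight per group, and 218 beyond 5 kb from a TSS, where 1233 regions remain as members. At adjusted p under 0.01 there were 277 higher and 112 lower. For tfap2B against input, 373 lower became 130 with total reads, 229 with TMM factors, 203 with DESeq2 size factors, 146 with upper quartile factors, 161 with edgeR, 150 with 1 variance weight per group, and 172 beyond 5 kb. With only tfap2B and input in the fit there were 175 higher and 244 lower, and at adjusted p under 0.01 123 and 84. For sox10 against tfap2B (159 and 1) there were 274 and 12 with a replicate block and 299 and 20 on placed chromosomes alone. The DESeq2 Wald test gave 8 lower. With the inputs in the fit there were 0 and 0 with a variance shared by all groups. With the inputs and 1 variance weight per group there were 82 and 1. At adjusted p under 0.01 limma called 0 and 0 (385 and 107 at unadjusted p under 0.05). EdgeR called 140 and 1 at adjusted p under 0.05. Leaving out 1 library gave 93 to 668 higher and 8 to 826 lower for sox10, 0 to 601 and 0 to 661 for tfap2B, and 0 to 476 and 0 to 258 for the direct comparison. A fit with 1 library of a group assumes that it varies like the others.

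The share above input was lower on microchromosomes than on chromosomes 1 to 10 in all 25 alternatives for sox10. For tfap2B it was lower in the 23 of 25 with any call. The share below input was higher in the same ones. These alternatives did not match the classes by TSS distance. Beyond 20 kb from a TSS the shares above input were close, at 37.3% against 38.1% for sox10 and 25.1% against 25.2% for tfap2B. Direct calls with more sox10 were 15.2% against 13.1% there. The shares below input still differed there, at 13.8% against 4.68% for sox10 and 11.1% against 2.88% for tfap2B. At 1 to 5 kb and 5 to 20 kb the share above input was lower on microchromosomes for both factors. The difference between chromosome classes, pull-downs minus inputs, was -1.19, ranged from -1.36 to -1.02 with 1 library left out, and was -0.89 without regions of at most 3 reads in both inputs. Of the 31 differences of named regions, 0 changed sign. The naming rule asks that libraries do not overlap between the groups, so leaving out 1 library could not change a sign. Nothing is therefore read from this count. EdgeR did not call 4 of the 31: chr13:1100949-1101449 for sox10, and for tfap2B chr23:5051235-5051735, chr22:6383-6883 and chr12:3232711-3233211. None of the 12 tfap2B differences was called without either tfap2B library, and 9 of the 12 for sox10 were not called without sox10 replicate 2. The cause of these changes was not tested.

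Whether the replicate numbers pair the libraries could not be settled. Same-numbered sox10 and tfap2B libraries correlated at 0.05 in their deviations from group means, sox10 and input at -0.03, and tfap2B and input at -0.27. With 2 libraries per group, crossing the numbers only flips the sign of each value. These values therefore cannot tell whether libraries were prepared as pairs. The replicate block gave 424 higher and 370 lower for sox10 and 266 and 264 for tfap2B. With the input numbers crossed, chosen after seeing the data, there were 495 and 479, and 390 and 376. The median microchromosome region had 51 and 52 reads in the shallower sox10 and tfap2B libraries, which limits the precision of single regions.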
